A study of Mus musculus with 18 samples.

Results

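The 10 genes described here, *Stab1*, *Stab2*, *Lyve1*, *Clec4g*, *Fcgr2b*, *Pecam1*, *Kdr*, *Vwf*, *Cdh5* and *Eng*, mark the sinusoidal endothelium of the liver or endothelium in general. They were found by symbol among the 15052 genes of the expression table, in which all 10 were present, and no filter removed any of them. RNA was sequenced from whole livers of 18 mice in the chronic-plus-binge ethanol (EtOH) model: 9 wild-type (WT) mice, of which 4 were pair-fed and 5 EtOH-fed, and 9 *Apoe* knockout (KO) mice, of which 5 were pair-fed and 4 EtOH-fed. WT mice were C57BL/6J and *Apoe* KO mice came from a purchased line, all aged 10 to 12 weeks and labelled female. All took a liquid Lieber-DeCarli diet for 5 days of acclimation. The EtOH-fed groups then had 5% (v/v) EtOH in the diet for 10 days and a gavage of 5 g/kg EtOH on day 11, whereas the pair-fed groups had an isocaloric diet and a gavage of 9 g/kg dextrin-maltose, and livers were taken 9 h after the gavage. The *Apoe* KO is a deletion in every cell of the body, and is not limited to the endothelium.

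Sinusoidal endothelial cells line the capillaries of the liver with a fenestrated wall that lacks a regular basement membrane, and they clear waste from the blood. *Stab1* and *Stab2* encode stabilin scavenger receptors, *Lyve1* a hyaluronan receptor, *Clec4g* the C-type lectin LSECtin, and *Fcgr2b* the inhibitory Fc receptor that takes up immune complexes. *Kdr* encodes VEGF receptor 2, *Eng* endoglin, a co-receptor for BMP and TGF-β ligands, *Pecam1* and *Cdh5* (VE-cadherin) adhesion molecules at endothelial junctions, and *Vwf* the von Willebrand factor, which is known as a product of larger vessels more than of healthy sinusoids. *Stab1* and *Fcgr2b* are also made by macrophages, *Fcgr2b* by B cells, and *Vwf* and *Pecam1* by megakaryocytes and platelets. In bulk liver RNA, a change in the number of cells of a type and a change in RNA per cell cannot be told apart.

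On GRCm38, the stabilin genes lie at chr14:31139013-31168641 (*Stab1*) and chr10:86841198-87008025 (*Stab2*), and the other endocytic receptors at chr7:110850607-110863239 (*Lyve1*), chr8:3707064-3720651 (*Clec4g*) and chr1:170958617-170976547 (*Fcgr2b*), all on the minus strand. *Kdr* (chr5:75932827-75978458) and *Pecam1* (chr11:106654217-106750628) are also on the minus strand, and *Eng* (chr2:32646595-32682669), *Cdh5* (chr8:104101625-104144511) and *Vwf* (chr6:125546774-125686679) are on the plus strand. Values count reads on the exons of a gene as a whole, so that UTRs, coding exons and isoforms are not separated.

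Sequence upstream of the RefSeq start was held for 6 of the 10 genes (GRCm38.p6), and 4 of these are shown. The 4 are the stabilin pair, which took opposite signs in pair-fed mice, *Clec4g*, which was lower in pair-fed *Apoe* KO mice, and *Kdr*, which was higher after EtOH. Those of *Fcgr2b* and *Eng* are not shown, and that of *Fcgr2b* (chr1:170976072-170976321) lies within the gene as placed above. All 4 lie on the minus strand and are printed 5′ to 3′ in the direction of transcription, ending at the last base before the gene start. They are chr14:31168642-31168891 for *Stab1*, chr10:87008026-87008192 for *Stab2*, chr8:3720652-3720901 for *Clec4g* and chr5:75978459-75978705 for *Kdr*. Capitals mark cores of the ETS family of transcription factors, which is widely used by endothelial genes, namely CAGGAA and CCGGAA on either strand (TTCCTG and TTCCGG when read on the other strand).
Stab1: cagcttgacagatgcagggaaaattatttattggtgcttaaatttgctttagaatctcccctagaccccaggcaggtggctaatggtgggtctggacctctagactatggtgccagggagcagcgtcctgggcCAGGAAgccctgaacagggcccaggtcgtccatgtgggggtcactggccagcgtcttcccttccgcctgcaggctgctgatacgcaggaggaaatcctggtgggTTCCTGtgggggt
Stab2: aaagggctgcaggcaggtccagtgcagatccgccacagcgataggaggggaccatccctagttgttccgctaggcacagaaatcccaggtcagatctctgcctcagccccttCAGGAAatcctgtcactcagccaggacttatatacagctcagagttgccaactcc
Clec4g: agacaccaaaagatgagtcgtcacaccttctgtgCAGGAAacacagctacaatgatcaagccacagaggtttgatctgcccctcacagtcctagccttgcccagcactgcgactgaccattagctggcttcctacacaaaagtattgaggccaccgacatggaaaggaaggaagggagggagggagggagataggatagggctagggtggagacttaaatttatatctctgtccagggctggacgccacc
Kdr: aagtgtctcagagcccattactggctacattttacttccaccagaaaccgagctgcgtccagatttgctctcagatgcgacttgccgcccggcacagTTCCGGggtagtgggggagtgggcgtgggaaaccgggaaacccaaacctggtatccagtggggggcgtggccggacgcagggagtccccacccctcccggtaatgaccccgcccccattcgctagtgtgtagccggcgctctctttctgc
In the 250 bases before the RefSeq start, CAGGAA was found in 3 of the 6 sequences (*Stab1*, *Stab2* and *Clec4g*), as it was in 25.7% of 32851 promoters of the same length. CCGGAA was found in 1 (*Kdr*), against 12.0% of all promoters. The 4 sequences shown are thus the 4 of 6 with either ETS core, which 35.1% of all promoters had, and *Fcgr2b* and *Eng* had neither. The GATA site AGATAA was found in 0 of 6, against 9.99% of all promoters. No marked cores overlapped, and a match of letters is a description of the sequence only.

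The value of a gene, given below in units of scaled reads, was its read count after a scaling that left every mouse with almost the same total (32267493 to 32292618). From the spacing of low values, 15 mice held an estimated 5.6 to 52.22 M reads on genes, with medians of 14.9 M and 39.5 M in pair-fed and EtOH-fed WT mice (4 of 4 and 3 of 5 mice) and of 21.4 M and 11.0 M in pair-fed and EtOH-fed *Apoe* KO mice (4 of 5 and 4 of 4). *Apoe* itself was 611230 to 798431 in WT and 8586 to 108651 in *Apoe* KO mice, with no overlap. EtOH-fed *Apoe* KO mouse 1 went against its female label, with 826 for *Xist* (15227 to 30379 in the other mice) and 1077 for the Y-linked *Ddx3y* (2 to 118). For the 10 genes, counts of called genes, medians and most differences that use this group are therefore also given without that mouse. For the other lists only some values are. Differences below are on the log2(value + 1) scale ± standard error, a fold is 2 to the power of that difference, and a gene was called when its adjusted p was under 0.05 (limma, two-sided, with Benjamini-Hochberg adjustment over all 15052 genes).

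In pair-fed WT livers, the levels of the 10 genes spanned a wide range per kb of exon. *Clec4g* (499 ± 31.3 scaled reads per kb, SD, n = 4) and *Eng* (474 ± 38.4) were at the top, and their ranges overlapped. They were followed by *Fcgr2b* (259 ± 34.6), *Stab1* (189 ± 31.3) and *Stab2* (159 ± 27.0). *Cdh5* (120 ± 14.5), *Kdr* (111 ± 12.9), *Lyve1* (103 ± 25) and *Pecam1* (83.0 ± 8.88) formed the next tier. *Vwf* was far below the rest at 9.03 ± 1.84 scaled reads per kb. Neighbours in this order overlapped over the 4 mice, except *Eng* with *Fcgr2b* and *Pecam1* with *Vwf*, where the lower gene's highest mouse lay below the higher gene's lowest mouse. In EtOH-fed *Apoe* KO mice the order per kb was *Eng* (689 ± 97.6, SD, n = 4), *Clec4g* (618 ± 187), *Fcgr2b* (290 ± 69.3), *Lyve1* (289 ± 83.2), *Cdh5* (257 ± 71.5), *Stab2* (217 ± 39.9), *Stab1* (193 ± 40.3), *Kdr* (176 ± 44.4), *Pecam1* (153 ± 43.9) and *Vwf* (30.7 ± 13.2). Neighbours in this order overlapped over the 4 mice, except *Clec4g* with *Fcgr2b* and *Pecam1* with *Vwf*.

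**Figure D1:**
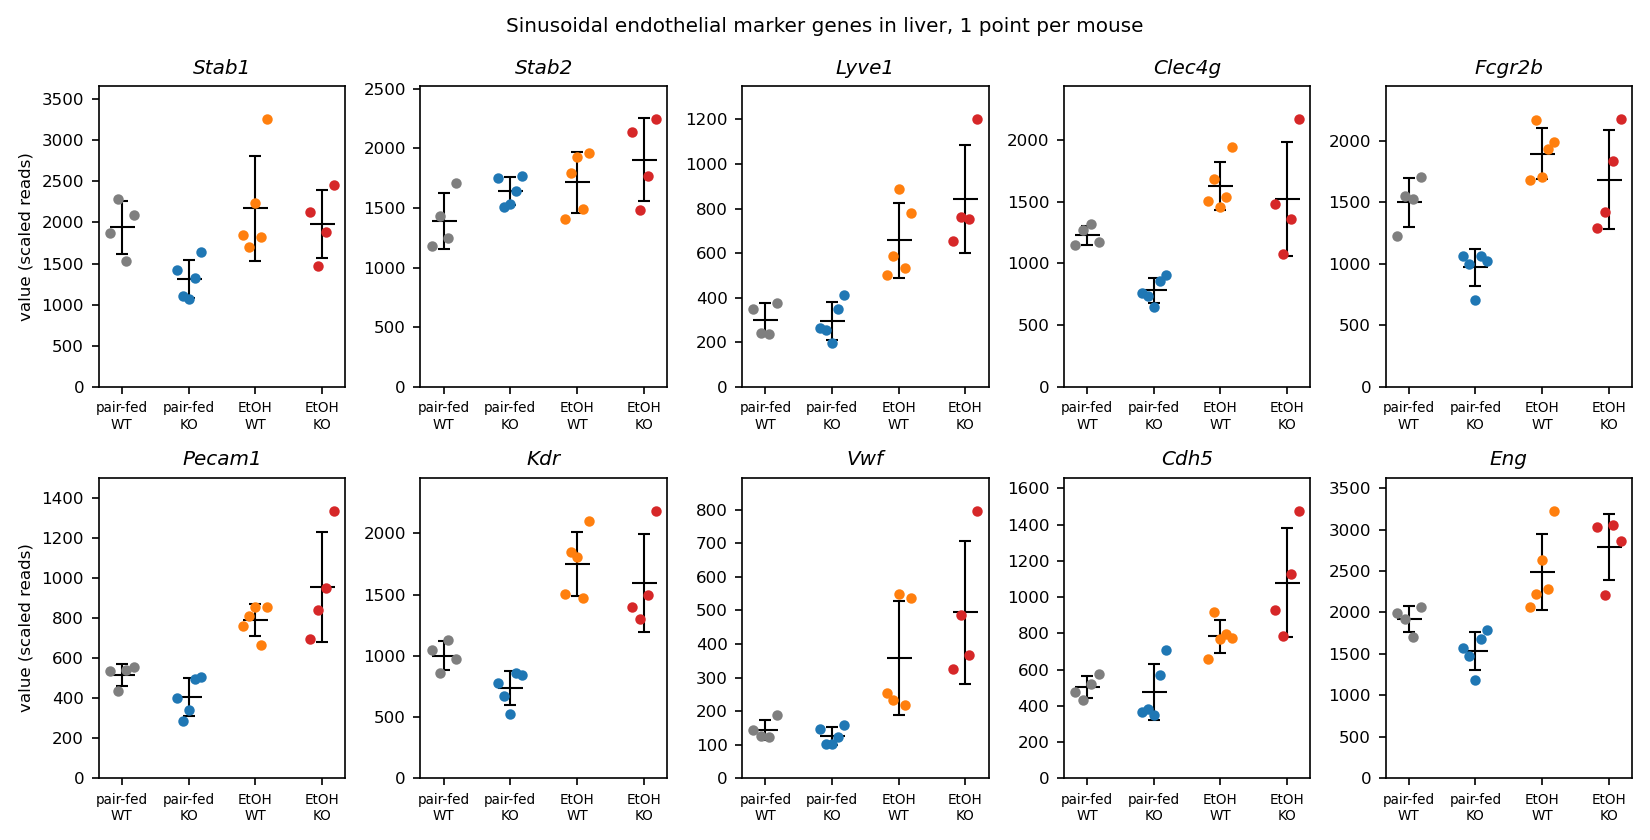
Value (scaled reads, y axis from 0) of each of the 10 genes in the 4 groups, with 1 point per mouse and bars for mean ± SD. For *Lyve1*, *Kdr*, *Pecam1* and *Vwf* every EtOH-fed mouse of a genotype lies above every pair-fed mouse of that genotype, whereas for *Stab2* the groups overlap.

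The first comparison asked how EtOH feeding changed the sinusoidal markers in WT liver. Of the 10 genes, 6 rose (*Lyve1*, *Vwf*, *Kdr*, *Cdh5*, *Pecam1* and *Clec4g*) and none fell, where 12.7% of all genes were called in either direction and 6.19% were called higher. The values of 7 genes, those 6 and *Eng*, did not overlap between the groups and were all higher after EtOH, as was the case for 7.43% of all genes. The median difference of the 10 genes was 0.50, against −0.01 for all genes.

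Among the endocytic receptors, the hyaluronan receptor *Lyve1* changed most. It was 351, 240, 239 and 378 in pair-fed WT mice and 502, 587, 889, 531 and 781 in EtOH-fed WT mice. Even the highest pair-fed mouse was below the lowest EtOH-fed mouse, and the difference was 1.12 ± 0.20, or 2.17-fold (adjusted p = 0.00356). The lectin *Clec4g* rose less, from 1152, 1269, 1315 and 1175 to 1507, 1684, 1457, 1536 and 1943. Its 1.32-fold difference (0.40 ± 0.11, adjusted p = 0.0293) was the smallest one called. It was no longer called without pair-fed WT mouse 1, 2 or 4 (adjusted p = 0.0708, 0.061 and 0.0754) or without EtOH-fed WT mouse 2 (0.0699). The call was also lost with all 4 groups in the fit (0.075) and with the replicate number as a block (0.121). *Fcgr2b* differed by 0.34 ± 0.12 (adjusted p = 0.0807) and was not called.

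Neither stabilin was called in WT mice. *Stab1* was 1867, 2282, 1533 and 2093 in pair-fed and 1843, 1703, 2240, 1819 and 3254 in EtOH-fed WT mice. Except for EtOH-fed WT mouse 5, which had 3254, the values lay within or close to the pair-fed range, and the difference was 0.13 ± 0.18 with a 95% interval of −0.26 to 0.52 (adjusted p = 0.676). Without that mouse it was −0.02. *Stab2* was 1392 ± 237 in pair-fed (SD, n = 4) and 1714 ± 254 in EtOH-fed WT mice (n = 5), a difference of 0.30 ± 0.14 (limma adjusted p = 0.174) with overlapping values.

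Of the general endothelial genes, 4 of 5 rose in WT mice. *Kdr* was 1049, 858, 1132 and 972 in pair-fed and 1508, 1846, 1804, 1476 and 2105 in EtOH-fed WT mice. The gap between the groups was wide, and the 1.74-fold difference (0.80 ± 0.13) had the smallest adjusted p of the list (0.00181). The junctional genes *Cdh5* and *Pecam1* rose 1.56-fold (0.64 ± 0.13, adjusted p = 0.00644) and 1.53-fold (0.61 ± 0.12, adjusted p = 0.00679). *Vwf* was 144, 125, 124 and 187 in pair-fed and 254, 234, 549, 219 and 538 in EtOH-fed WT mice. All EtOH-fed values were higher, but mice 3 and 5 had more than the other EtOH-fed mice, and the coefficient of variation of that group was 47.1%. The 2.29-fold difference of *Vwf* (1.20 ± 0.29, adjusted p = 0.0169) was not called without pair-fed WT mouse 2 (adjusted p = 0.0528). *Eng* was not called at 0.36 ± 0.13 (adjusted p = 0.0868), although its groups did not overlap. It was called with median-of-ratios scaling (adjusted p = 0.045) and under none of the other alternatives. Its adjusted p was 0.249 with the replicate number as a block and up to 0.181 on leaving out a mouse.

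In *Apoe* KO mice, EtOH feeding raised 9 of the 10 genes, all but *Stab2*, and lowered none, where 23.2% of all genes were called and 16.3% were called higher. For 8 genes the groups did not overlap, all higher after EtOH (14.0% of all genes). The median difference of the 10 genes was 1.01, against 0.13 for all genes. With median-of-ratios scaling, which moved the median of all genes to 0.00, the median of the 10 genes was 0.89 and 9 were still called. Without EtOH-fed *Apoe* KO mouse 1, the count was 9 and the median 1.04, against 0.14 for all genes, of which 22.1% were called.

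*Vwf* again changed most. It was 148, 101, 101, 124 and 160 in pair-fed *Apoe* KO mice and 326, 485, 368 and 796 in EtOH-fed *Apoe* KO mice 1, 2, 4 and 5. The lowest EtOH-fed mouse had more than any pair-fed mouse, and the difference was 1.89 ± 0.25, or 3.7-fold (adjusted p = 0.000216), and 2.06 without mouse 1. *Lyve1* was 262, 257, 198, 349 and 411 in pair-fed and 655, 764, 753 and 1200 in EtOH-fed *Apoe* KO mice. The groups were separate, with mouse 5 highest, and the difference was 2.86-fold (1.52 ± 0.22, adjusted p = 0.000376), and 1.62 without mouse 1.

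Both junctional genes rose. *Pecam1* was 402, 287, 340, 493 and 505 in pair-fed and 695, 840, 950 and 1334 in EtOH-fed *Apoe* KO mice, a difference of 1.22 ± 0.20, or 2.34-fold (adjusted p = 0.000961). *Cdh5* was 368, 382, 352, 570 and 706 against 929, 783, 1130 and 1476, a difference of 1.20 ± 0.22, or 2.29-fold (adjusted p = 0.00215). Neither gene overlapped between the groups, and pair-fed mice 4 and 5 and EtOH-fed mouse 5 were the highest of their groups for both. Without mouse 1 the differences were 1.36 for *Pecam1* and 1.26 for *Cdh5*.

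The 2 receptors for growth factors followed. *Kdr* was 781, 674, 529, 862 and 842 in pair-fed and 1396, 1301, 1494 and 2184 in EtOH-fed *Apoe* KO mice, 2.15-fold higher (1.10 ± 0.17, adjusted p = 0.000637). *Eng* was 1566, 1476, 1185, 1675 and 1788 against 3026, 2210, 3058 and 2861, 1.82-fold higher (0.86 ± 0.13, adjusted p = 0.000574). Both were separate between the groups, and *Eng* was even among EtOH-fed mice 1, 4 and 5. Without mouse 1 the differences were 1.16 for *Kdr* and 0.82 for *Eng*.

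Of the 5 endocytic receptors, *Stab1*, *Clec4g* and *Fcgr2b* rose beside *Lyve1*, and *Stab2* was not called. *Clec4g* was 758, 737, 650, 856 and 903 in pair-fed and 1483, 1079, 1359 and 2165 in EtOH-fed *Apoe* KO mice, a 1.90-fold difference (0.92 ± 0.17, adjusted p = 0.00195). *Fcgr2b* was 1062, 995, 709, 1062 and 1025 against 1294, 1420, 1838 and 2172, a 1.71-fold difference (0.78 ± 0.16, adjusted p = 0.00414). Neither overlapped between the groups, and without mouse 1 the differences were 0.92 for *Clec4g* and 0.89 for *Fcgr2b*. *Stab1* rose from 1313 ± 234 (SD, n = 5) to 1986 ± 415 (n = 4) with overlapping values, a difference of 0.59 ± 0.16 (limma adjusted p = 0.0152) that was not called without EtOH-fed mouse 5 (adjusted p = 0.0569). Without mouse 1 it was 0.55 (adjusted p = 0.0412). *Stab2* was 1748, 1510, 1536, 1641 and 1766 in pair-fed and 2134, 1480, 1764 and 2242 in EtOH-fed *Apoe* KO mice. The values overlapped widely, and the difference of 0.20 ± 0.12 had a 95% interval of −0.06 to 0.46 (adjusted p = 0.259). Without mouse 1 it was 0.14 (adjusted p = 0.474).

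**Figure D2:**
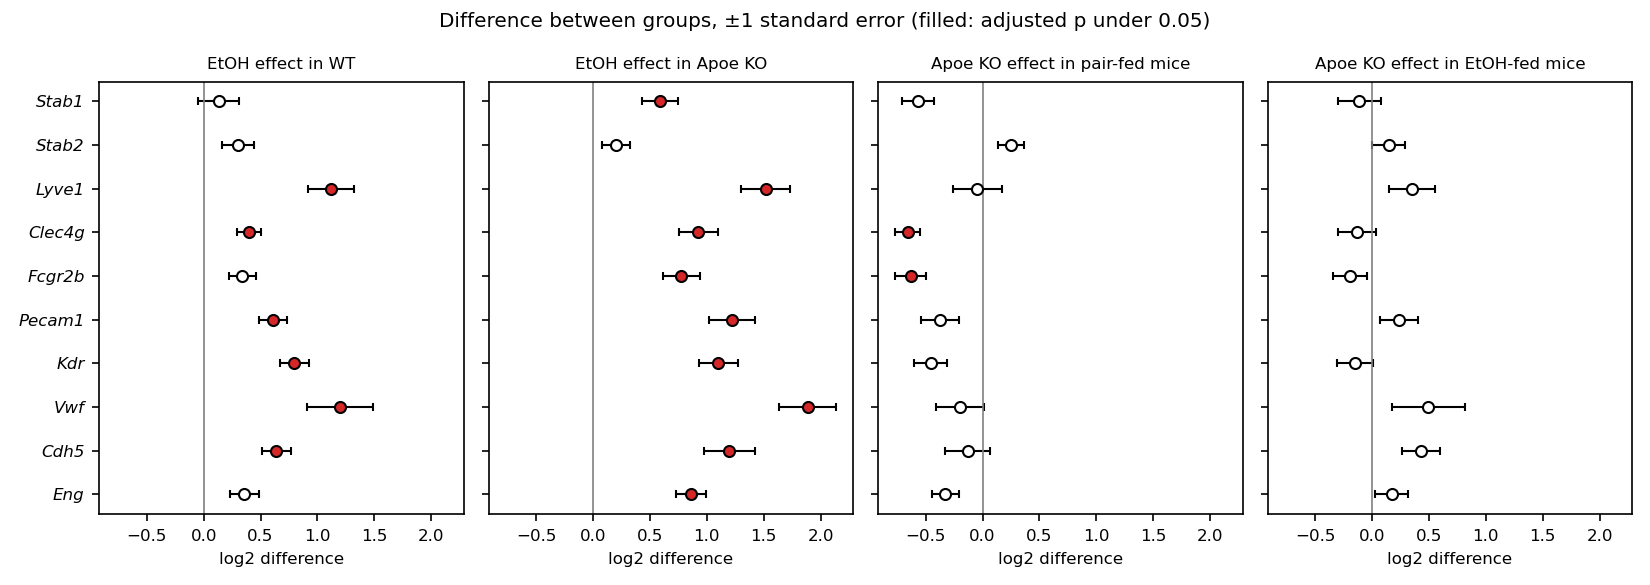
Difference on the log2(value + 1) scale (x axis) of each of the 10 genes in the 4 pairwise comparisons, with 1 standard error on each side and filled points for an adjusted p under 0.05. In the EtOH comparisons, 6 genes in WT and 9 in *Apoe* KO mice are filled to the right of 0, and in the pair-fed genotype comparison *Clec4g* and *Fcgr2b* are filled to the left.

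The genotype comparison in pair-fed mice asked whether the *Apoe* deletion alone altered the markers. The 2 genes that fell were *Clec4g* and *Fcgr2b*, and none rose, where 1.73% of all genes were called and 0.864% were called lower. They were also the 2 genes without overlap between the groups, both lower in *Apoe* KO mice (3.02% of all genes). *Clec4g* had 1152 to 1315 in the 4 WT mice and 650 to 903 in the 5 *Apoe* KO mice, a difference of −0.66 ± 0.11, or 0.633 times the WT level (adjusted p = 0.00998). *Fcgr2b* had 1222 to 1701 in WT and 709 to 1062 in *Apoe* KO mice, a difference of −0.63 ± 0.14 (adjusted p = 0.0318). The call of *Fcgr2b* was lost without pair-fed WT mouse 2 (adjusted p = 0.108) or 4 (0.119), or without pair-fed *Apoe* KO mouse 1 (0.0578) or 4 (0.0541). The 6 B cell markers moved in the same comparison, with a median difference of −1.17 and a summed value of 263 to 639 in WT and 137 to 283 in *Apoe* KO mice, and 0 of 6 were called (4 at an unadjusted p under 0.05). Their part in the *Fcgr2b* result was not tested. In this comparison 0 of the 6 B cell markers had a positive difference, as had 0 of 14 other sinusoidal genes, 1 of the 10 genes and 2 of 26 other pan-endothelial genes.

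The 2 stabilins took opposite signs in pair-fed mice. *Stab1* was 1867, 2282, 1533 and 2093 in WT and 1418, 1109, 1072, 1326 and 1641 in *Apoe* KO mice. The groups touched only through WT mouse 3 and *Apoe* KO mouse 5, and the difference of −0.57 ± 0.14 was just outside the threshold (adjusted p = 0.0561). It was called with median-of-ratios scaling (0.0492), with a pseudocount of 10 (0.0486) and with sample quality weights (0.0417). The same held with the replicate number as a block (0.0259), and without WT mouse 3 (0.0255) or *Apoe* KO mouse 5 (0.028). Under the remaining alternatives *Stab1* was not called. Its adjusted p was then up to 0.184 on leaving out a mouse and up to 0.101 in the others. *Stab2* was 1181, 1430, 1246 and 1710 in WT and 1748, 1510, 1536, 1641 and 1766 in *Apoe* KO mice, the one gene of the list with a positive difference (0.25 ± 0.11, adjusted p = 0.242). The median of the 10 genes was −0.35, against −0.005 for all genes, and 7 had an unadjusted p under 0.05. *Lyve1* (−0.05 ± 0.22), *Cdh5* (−0.13 ± 0.20) and *Vwf* (−0.20 ± 0.21) had intervals that reached from a decrease to an increase. This comparison uses the same pair-fed mice as the EtOH comparisons, so that the values are not independent of them: *Clec4g* was 0.40, 0.92 and −0.66 for EtOH in WT, EtOH in *Apoe* KO and genotype in pair-fed mice, and *Fcgr2b* was 0.34, 0.78 and −0.63.

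In EtOH-fed mice, none of the 10 genes was called between *Apoe* KO and WT (limma), where 4.69% of all genes were. At an unadjusted p under 0.05 there was 1, *Cdh5*, with 929, 783, 1130 and 1476 in *Apoe* KO and 660, 919, 769, 798 and 774 in WT mice. *Apoe* KO mouse 2 lay within the WT range, and the difference was 0.43 ± 0.17 (adjusted p = 0.178). All 10 genes overlapped between the genotypes, where 8.13% of all genes did not. The largest difference was that of *Vwf*, 0.50 ± 0.32 with a 95% interval of −0.20 to 1.19 (adjusted p = 0.454). With the replicate number as a block, *Vwf* (0.68, adjusted p = 0.0297) and *Lyve1* (0.47, adjusted p = 0.0421) were called. The block also called more of all 15052 genes, 1083 against 706 without it. The labels tie such mice by nothing but the number. *Clec4g* (1625 ± 197 in WT, n = 5, and 1522 ± 461 in *Apoe* KO mice, n = 4) and *Fcgr2b* (1894 ± 206 and 1681 ± 402) had intervals of −0.50 to 0.23 and −0.52 to 0.13. The median difference was 0.16, against 0.11 for all genes, and was 0.03 against −0.02 with median-of-ratios scaling. Without *Apoe* KO mouse 1, 0 genes were called, the median was 0.11 and the differences ran from −0.15 (*Stab1*) to 0.66 (*Vwf*), with 0.49 for *Cdh5*.

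Whether EtOH acted differently in the 2 genotypes was tested as the interaction over all 18 mice. None of the 10 genes was called (limma), where 2.84% of all genes were, and 3 had an unadjusted p under 0.05. These were *Pecam1* (0.62 ± 0.25, adjusted p = 0.203), *Clec4g* (0.53 ± 0.21, adjusted p = 0.199) and *Eng* (0.50 ± 0.19, adjusted p = 0.177). The effect of EtOH was the larger one in *Apoe* KO mice for 9 of 10 genes, with a median difference of 0.48 against 0.11 for all genes. Without EtOH-fed *Apoe* KO mouse 1 the median was 0.52 and 0 genes were called, with 0.75 for *Pecam1*, 0.52 for *Clec4g* and 0.46 for *Eng*. The higher count of called genes in *Apoe* KO (9) than in WT mice (6) is therefore not shown to be a difference between the genotypes.

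To see how the markers stood against other endothelial genes, each was expressed relative to the mean log2 value of 26 other pan-endothelial genes in the same mouse, a measure chosen after the values had been seen. By this measure 41.5% of all genes were called for EtOH in WT, 63.9% for EtOH in *Apoe* KO and 45.2% for genotype in pair-fed mice, since the reference itself moved. The counts of 2, 3 and 1 among the 10 genes were below those shares. For EtOH in *Apoe* KO mice, the relative differences of *Clec4g* (0.06 ± 0.20), *Fcgr2b* (−0.09 ± 0.19) and *Stab1* (−0.27 ± 0.19) were not called, and that of *Eng* had a 95% interval of −0.40 to 0.40. For genotype in pair-fed mice, those of *Clec4g* (−0.18 ± 0.16), *Fcgr2b* (−0.15 ± 0.16) and *Stab1* (−0.09 ± 0.16) were not called either.

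*Lyve1* and *Vwf* rose relative to the reference genes after EtOH. The relative difference of *Lyve1* was 0.67 ± 0.18 in WT (adjusted p = 0.00857) and 0.65 ± 0.20 in *Apoe* KO mice (adjusted p = 0.00717). That of *Vwf* was 0.75 ± 0.23 (adjusted p = 0.0184) and 1.03 ± 0.23 (adjusted p = 0.000572). Without pair-fed WT mouse 2 or EtOH-fed WT mouse 3, *Vwf* in WT was not called (adjusted p = 0.0548 and 0.0507). Against 14 other sinusoidal genes as the reference, *Lyve1* in *Apoe* KO mice was not called either (0.43 ± 0.22, adjusted p = 0.0733).

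*Stab2* had the opposite sign. Its relative level was 2.44, 2.60, 2.49 and 2.75 in pair-fed and 2.45, 2.55, 2.47, 2.36 and 2.32 in EtOH-fed WT mice. In *Apoe* KO mice it was 3.34, 3.38, 3.47, 3.16 and 3.14 when pair-fed and 3.12, 2.50, 2.39 and 2.52 when EtOH-fed. All pair-fed *Apoe* KO mice were above all other mice, with EtOH-fed *Apoe* KO mouse 1 next to them. The relative difference was 0.73 ± 0.16 for genotype in pair-fed mice (adjusted p = 0.00167) and −0.66 ± 0.20 for EtOH in *Apoe* KO mice (adjusted p = 0.00515), or −0.83 without mouse 1 (adjusted p = 0.000685). In WT mice, EtOH gave −0.14 ± 0.13 (adjusted p = 0.395). The interaction was −0.52 ± 0.22 (adjusted p = 0.212) and was −0.69 ± 0.20 without mouse 1 (adjusted p = 0.0677). The raw level of *Stab2* was not called in any of the 5 comparisons, while the median difference of the 26 reference genes was −0.46 for genotype in pair-fed mice and 0.91 for EtOH in *Apoe* KO mice. By this measure 0 of the 10 genes were called between genotypes in EtOH-fed mice, where 5.04% of all genes were (3 at an unadjusted p under 0.05, *Lyve1*, *Vwf* and *Cdh5*), and 0 for the interaction, where 0.850% were (1 at an unadjusted p under 0.05, *Stab2*). With the replicate number as a block, *Lyve1* and *Vwf* were called between genotypes in EtOH-fed mice by this measure as well.

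**Figure D3:**
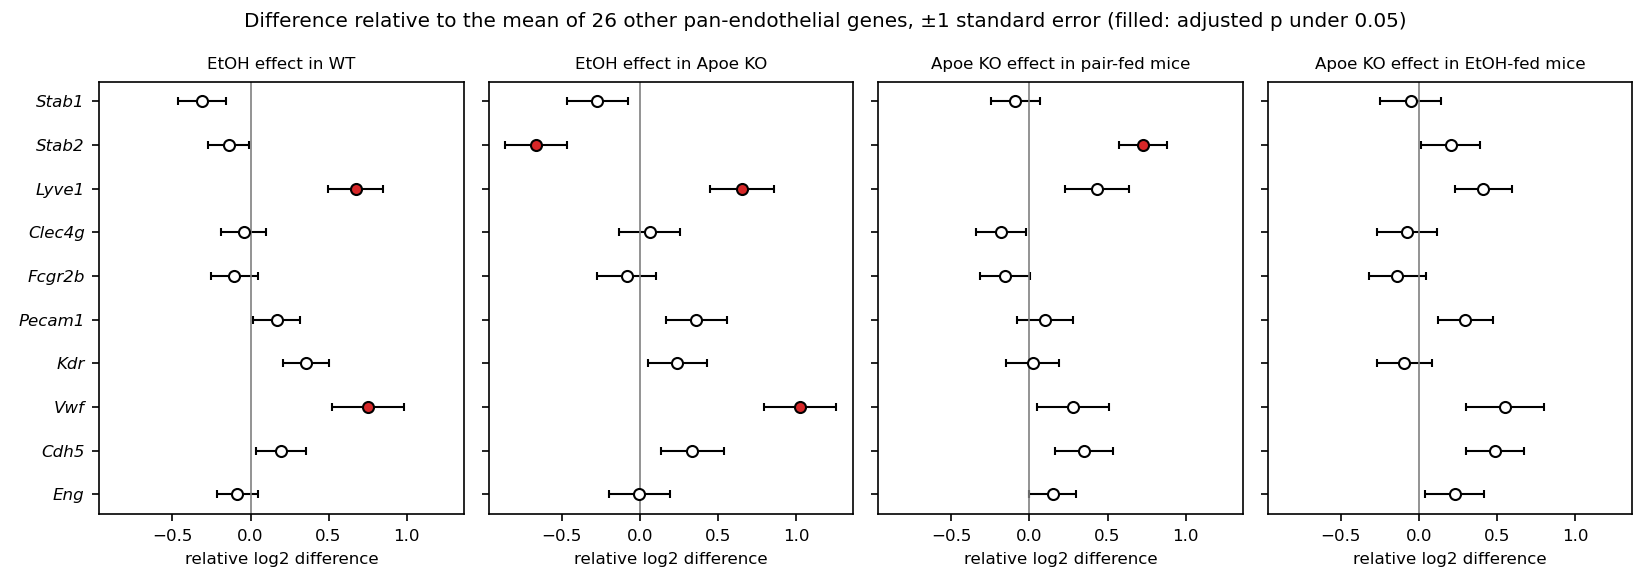
Difference of each of the 10 genes relative to the mean of 26 other pan-endothelial genes (log2, x axis) in the 4 pairwise comparisons, with 1 standard error on each side and filled points for an adjusted p under 0.05. *Lyve1* and *Vwf* are filled to the right of 0 in both EtOH comparisons, and *Stab2* is filled to the left for EtOH in *Apoe* KO and to the right for genotype in pair-fed mice.

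**Figure D4:**
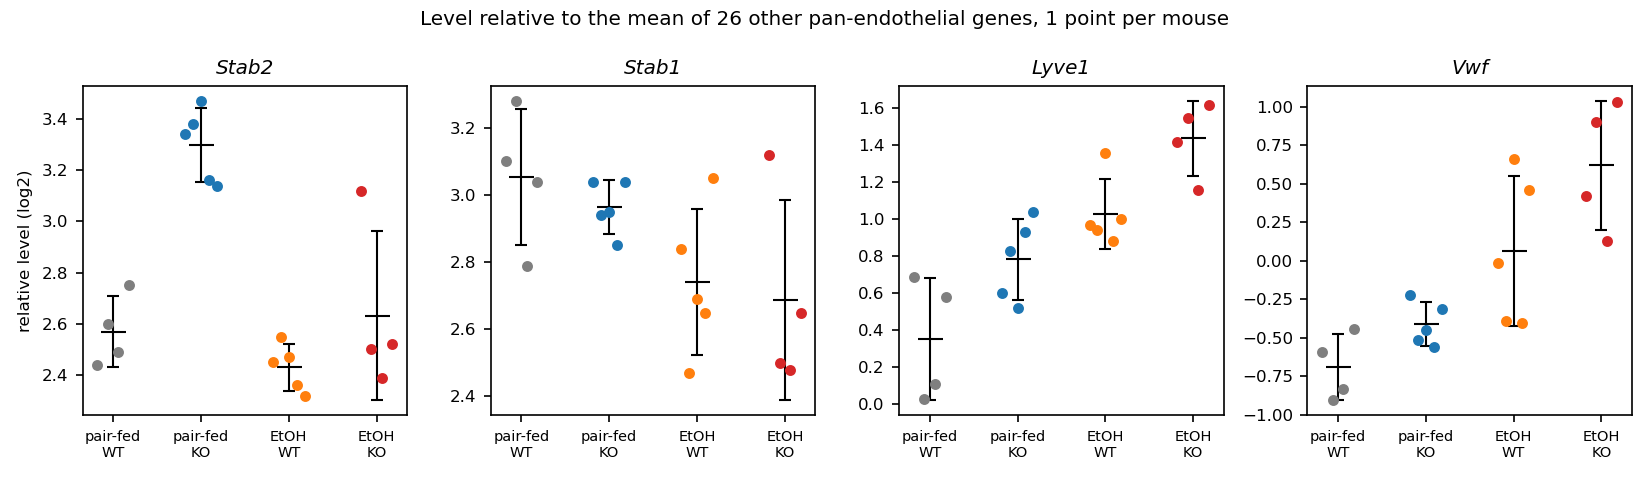
Level of *Stab2*, *Stab1*, *Lyve1* and *Vwf* relative to the mean of 26 other pan-endothelial genes (log2, y axis), with 1 point per mouse and bars for mean ± SD. For *Stab2*, the 5 pair-fed *Apoe* KO mice lie from 3.14 to 3.47, above all mice of the other groups, of which EtOH-fed *Apoe* KO mouse 1 at 3.12 is nearest.

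The medians of the other endothelial lists were also above 0 after EtOH in both genotypes. Of 14 other sinusoidal genes, 6 rose with EtOH in WT and 13 in *Apoe* KO mice and none fell, with medians of 0.64 and 1.06. Examples are *Gpr182*, a sinusoidal receptor (1.06 in WT and 1.21 in *Apoe* KO mice), the endocytic gene *Ehd3* (0.79 and 1.19), and the Wnt ligand *Wnt9b* (1.29 and 2.55), which liver endothelium supplies to hepatocytes. In WT mice the call of *Wnt9b* (adjusted p = 0.0381) was lost on leaving out any of 6 single mice, with an adjusted p of up to 0.0874 (without pair-fed WT mouse 1). *Wnt2*, another such ligand, rose by 1.73 in *Apoe* KO mice. Both ligands had low values. *Wnt9b* was 10 to 30 in pair-fed and 57 to 223 in EtOH-fed *Apoe* KO mice, and *Wnt2* was 22 to 42 and 102 to 158. A single read stood for up to 4.095 units in the *Apoe* KO mice with an estimate. Of 26 pan-endothelial genes, 9 rose in WT, and 18 rose and 1 fell in *Apoe* KO mice, with medians of 0.33 and 0.91. *Cd93* (1.15 and 1.63) and *Clec14a* (1.10 and 1.29), both endothelial surface proteins, were among those that rose. In pair-fed *Apoe* KO mice, 2 of the 14 sinusoidal genes fell, *Flt4* (−0.83, VEGF receptor 3) and *Bmp2* (−0.68). *Bmp2* was not called when any of 5 single mice was left out, with an adjusted p of 0.131 without pair-fed WT mouse 4. The medians of the 2 lists were −0.44 and −0.46 there, and 0 of the 26 pan-endothelial genes were called (16 at an unadjusted p under 0.05). None of either list was called between genotypes in EtOH-fed mice, with 1 of each at an unadjusted p under 0.05. Without EtOH-fed *Apoe* KO mouse 1, 11 of the 14 and 18 of the 26 genes rose with EtOH in *Apoe* KO mice, with medians of 1.10 and 1.05, and 0 of either list were called between genotypes in EtOH-fed mice.

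**Figure D5:**
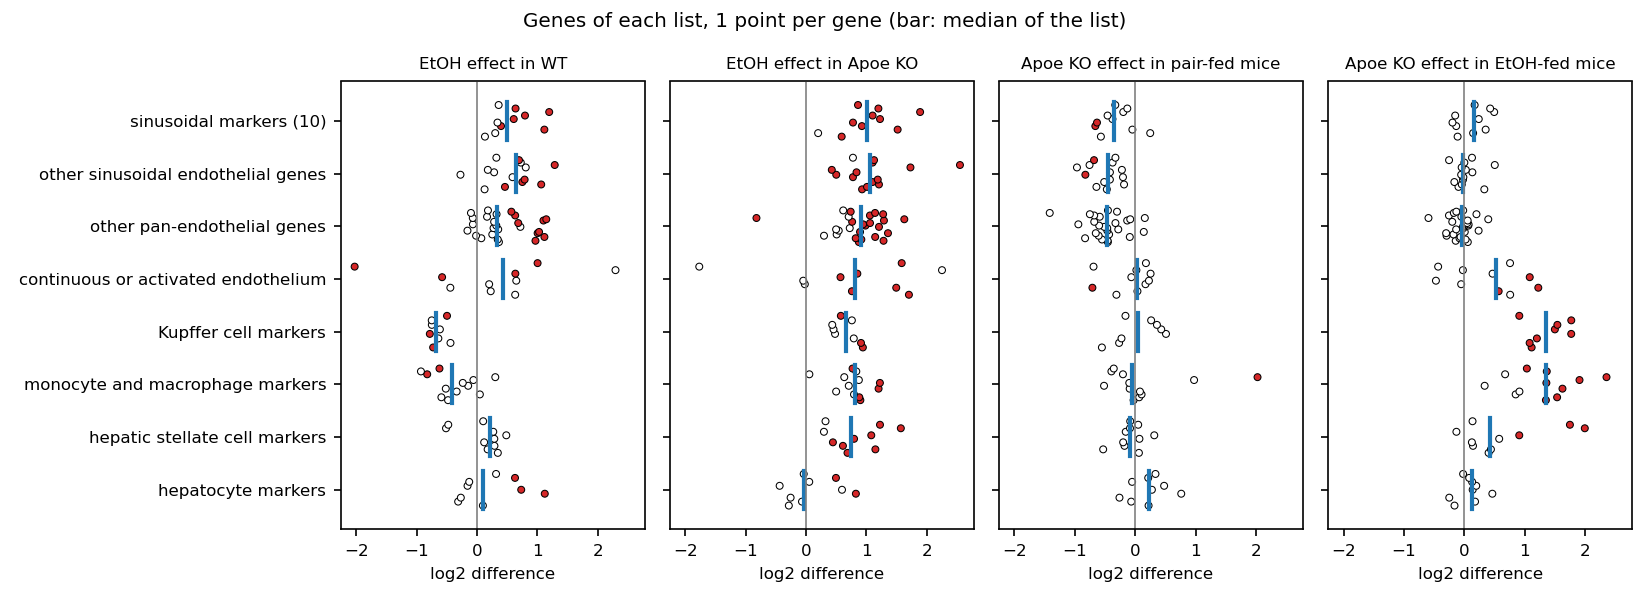
Difference on the log2(value + 1) scale (x axis) of each measured gene of 8 lists in the 4 pairwise comparisons, with 1 point per gene, filled where the adjusted p was under 0.05, and a bar at the list's median. The medians of the 3 upper lists lie right of 0 with EtOH in both genotypes (0.50, 0.64 and 0.33 in WT), and those of the Kupffer cell and macrophage lists lie left of 0 in WT (−0.68 and −0.41) and right of 0 in *Apoe* KO mice (0.67 and 0.81).

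Around *Kdr*, 12 of 13 genes of the VEGF and angiopoietin system were measured. In WT mice 1 rose with EtOH, the angiopoietin receptor *Tek* (0.97 ± 0.17, adjusted p = 0.00307). In the same mice 1 fell, *Nrp1* (−0.56 ± 0.15, adjusted p = 0.0234, and up to 0.0802 on leaving out a mouse). In *Apoe* KO mice 5 rose and 2 fell. Those that rose included *Tek* (1.28 ± 0.22, adjusted p = 0.00134) and its partner *Tie1* (0.87 ± 0.17, adjusted p = 0.0023), both of which are also on the pan-endothelial list. *Vegfa* was 8156 ± 634 (SD) in pair-fed and 5724 ± 306 in EtOH-fed *Apoe* KO mice, and *Nrp1* was 2260 ± 225 and 1574 ± 190. The medians of this list were −0.20 and 0.29, next to −0.01 and 0.13 for all genes. Around *Eng*, 17 genes of the BMP and TGF-β system were measured, of which 2 rose in WT and 5 in *Apoe* KO mice and none fell. *Gdf2*, which encodes the endoglin ligand BMP9, rose in both (0.74 ± 0.11 and 0.96 ± 0.13, adjusted p = 0.00103 and 0.000212), and *Acvrl1*, the ALK1 receptor that shares this ligand with endoglin, rose in *Apoe* KO mice (0.96 ± 0.21, adjusted p = 0.00568). The medians of the 17 genes were 0.09 and 0.13, next to −0.01 and 0.13 for all genes. Without EtOH-fed *Apoe* KO mouse 1 the median in *Apoe* KO mice was 0.27, next to 0.14 for all genes. Of all genes, 12.7% and 23.2% were called with EtOH in WT and *Apoe* KO mice, 6.19% and 16.3% as higher.

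Around *Cdh5*, 4 of 12 junction genes rose in WT and 5 in *Apoe* KO mice and none fell. The tight junction gene *Cldn5* (1.0 ± 0.22 and 1.36 ± 0.24, adjusted p = 0.01 and 0.00158) and the VE-cadherin phosphatase *Ptprb* (0.68 ± 0.12 and 1.06 ± 0.15, adjusted p = 0.0026 and 0.000418) did so in both. For the hyaluronan and stabilin cargo genes, 9 of 14 were measured, of which 2 rose and 1 fell with EtOH in WT, and 5 rose and 1 fell in *Apoe* KO mice. *Sparc*, a matrix protein that stabilin-1 takes up, rose in *Apoe* KO mice (1.19 ± 0.16, adjusted p = 0.000262) and also rose in *Apoe* KO against WT mice when both were EtOH-fed (0.91 ± 0.17, adjusted p = 0.00899). Of the 10 measured genes of 12 for continuous or activated endothelium, 2 rose and 2 fell in WT and 6 rose in *Apoe* KO mice. Those that fell in WT mice were *Esm1* (−2.03 ± 0.50, adjusted p = 0.0188), with values of only 5 to 75, and *Vcam1* (−0.58 ± 0.16, adjusted p = 0.0312). On leaving out a mouse, *Vcam1* had an adjusted p of up to 0.0936. *Cd34*, a marker of continuous capillaries, rose in *Apoe* KO mice (1.70 ± 0.34, adjusted p = 0.00322). Between genotypes in EtOH-fed mice 3 of these 10 were higher in *Apoe* KO, including *Ly6a* (1.23 ± 0.22, adjusted p = 0.00886) and the leukocyte adhesion molecule *Vcam1* (1.08 ± 0.20, adjusted p = 0.00958), which other cell types also make. In pair-fed mice *Ly6a* was lower in *Apoe* KO (−0.71 ± 0.16, adjusted p = 0.045, and up to 0.142 on leaving out a mouse). Without EtOH-fed *Apoe* KO mouse 1, the genes that rose with EtOH in *Apoe* KO mice were 4 of 12 for the VEGF system, 4 of 17 for the BMP and TGF-β system, 6 of 12 for the junction, 4 of 9 for hyaluronan and stabilin cargo and 6 of 10 for activated endothelium. Genes of these lists named here as called, in comparisons that use this mouse, were still called.

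Markers of other liver cells moved as well. Of the 8 Kupffer cell markers, 3 fell with EtOH in WT (median −0.68) and 3 rose in *Apoe* KO mice (median 0.67), and all 8 were called higher in *Apoe* KO than WT livers after EtOH (median 1.35). On leaving out a mouse, the falls of *Cd5l*, *Clec4f* and *Clec1b* in WT had an adjusted p (limma) of up to 0.0933, 0.0609 and 0.107. The rise of *Clec1b* in *Apoe* KO mice had one of up to 0.111. Their summed value was 7905 to 14057 in pair-fed and 4789 to 8956 in EtOH-fed WT mice, and 8025 to 15968 in pair-fed and 11684 to 22380 in EtOH-fed *Apoe* KO mice. Of 12 macrophage markers, 2 fell in WT and 5 rose in *Apoe* KO mice, and between genotypes *Apoe* KO mice were higher for 8 after EtOH and for 1 when pair-fed. The falls in WT, of *Spp1* and *Csf1r*, had an adjusted p of up to 0.106 and 0.103 on leaving out a mouse. *Stab1* and *Fcgr2b*, which macrophages also express, differed between genotypes in EtOH-fed mice by −0.11 ± 0.19 and −0.20 ± 0.15. Of 10 stellate cell markers, none was called in WT (3 at an unadjusted p under 0.05) and 8 rose in *Apoe* KO mice (median 0.74). Without EtOH-fed *Apoe* KO mouse 1, 2 Kupffer cell, 6 macrophage and 6 stellate cell markers rose with EtOH in *Apoe* KO mice, and 6 Kupffer cell and 7 macrophage markers were higher than in WT mice after EtOH. The part of these lists in the endothelial results was not tested.

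The 4 of 7 platelet and megakaryocyte markers that were measured had 0 called genes in each comparison by limma (2 at an unadjusted p under 0.05 for EtOH in WT and 2 for genotype in EtOH-fed mice). Their summed value was 212 to 377 (median 264) in pair-fed and 167 to 308 (median 193) in EtOH-fed WT mice, and 137 to 330 (median 203) in pair-fed and 231 to 327 (median 269) in EtOH-fed *Apoe* KO mice. The part of platelet RNA in the *Vwf* results was not tested. The 6 B cell markers had 0 called genes for EtOH (3 and 1 at an unadjusted p under 0.05 in WT and *Apoe* KO mice), with medians of −0.78 and 0.52. Of 9 measured hepatocyte markers of 10, 3 rose in WT and 2 in *Apoe* KO mice, with medians of 0.10 and −0.04, and their sum was 2466576 to 4228131 over the 18 mice. Of 5 lymphatic endothelial markers, 1 rose in each genotype, *Prox1* in WT and *Flt4* in *Apoe* KO mice, and medians were 0.04 and 0.50. *Flt4* is also on the sinusoidal list, and without EtOH-fed *Apoe* KO mouse 1 it was not called (adjusted p = 0.057). The mean of *Prox1* was 4466 in pair-fed and 5807 in EtOH-fed WT mice. Group means of *Pdpn*, *Ccl21a* and *Mmrn1* were only 12.0 to 33.25, far below those of *Prox1*. Which cells gave the *Prox1* reads was not tested.

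Within groups, the 10 genes tended to be high or low in the same mice. After centring each gene on its group means, Pearson's r over the 18 mice was above 0.5 in 32 of 45 pairs, with a median of 0.61, and 0 pairs were below 0. *Stab1* with *Eng* (0.85) and *Lyve1* with *Vwf* (0.83) were highest, and *Fcgr2b* with *Vwf* (0.33) lowest. *Fcgr2b* followed the others least, with a median of 0.45, and *Kdr* most, with 0.67. These values are descriptions, since the mice of a pair of genes share a library and its depth. Of all other genes, the ones most like the mean of the 10 were *Ptprb* (0.91), ENSMUSG00000087638 (0.89), *Mmrn2* (0.88), *Stard8* (0.88), *Atg16l1* (0.87), *Ramp2* (0.87), ENSMUSG00000106303 (0.86), *Adcy4* (0.86), *Nol8* (0.86) and *Trim56* (0.86). Of these, 3 (*Ptprb*, *Mmrn2* and *Ramp2*) belong to the pan-endothelial list, whose median r was 0.66 against 0.15 for all other genes. With median-of-ratios scaling 8 of the 10 stayed among the first 10, and without EtOH-fed *Apoe* KO mouse 1 it was 4.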

How the data were processed

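Polyadenylated RNA from the livers of 18 mice, each 1 replicate grouped by its label, was sequenced. Per the labels, reads were handled with FastQC, Trimmomatic, HISAT2, SAMtools, featureCounts and DESeq2 on GRCm38. Versions are not given in the sources used here. The authors deposited 1 table in which the signal per mouse is a rounded read count per gene, scaled so that the totals of all mice are almost equal. The scaling step is not given in the sources used here. A single read stands for a different number of units in each mouse, so the shallow libraries are less precise. The lowest mean signal of a gene was 12.1. The authors also deposited columns of their own comparison, with log2 fold changes, standard errors and test scores, p-values, ranking scores and a count of mice expressing a gene, which were not used, and 0 columns of values per mouse were left out. The strand setting of the counting is not given in the sources used here, so reads of overlapping antisense genes cannot be told apart. Genes on several lines had identical values and were used once.

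Because whole reads could not be recovered in all mice (15 of 18 resolved), limma (version 3.58.1, R 4.3.3) with an intensity trend was fitted to log2(value + 1) in place of a count test. Each pairwise fit held only the groups compared, and the interaction held all 18 mice. Benjamini-Hochberg adjustment ran over 15052 genes at 0.05, and p-values measure the spread between mice. The code was tested on simulated data. Gene positions and exon lengths came from GENCODE M21 (GRCm38), and promoters from RefSeq. Tables and figures used Python 3.11.15 with pandas 2.3.3, numpy 2.4.6 and matplotlib 3.10.9.

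The 10 genes and all gene lists were chosen with earlier results of these data known. Named from each other list were, per comparison, at most the 4 called genes with the largest difference, of which the text gives some, and the 10 genes most like the markers. *Apoe*, *Xist* and *Ddx3y* checked the labels. Alternatives were all 4 groups in one fit, median-of-ratios size factors, a pseudocount of 10, a mean value of at least 100, sample quality weights, the replicate number as a block, and leaving out each mouse. The measure relative to the pan-endothelial genes, and the values without EtOH-fed *Apoe* KO mouse 1, were added after the data had been seen.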

Additional observations from a re-analysis of the deposited data

Results flagged for a closer look

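In the 40 groups of values (10 genes in 4 groups of 4 or 5 mice), 2 had a mouse that lay far from the rest of its group, which is the number that chance gives. Pair-fed *Apoe* KO mouse 3 was lowest for *Fcgr2b* at 709, and its gap to the next mouse was 0.839 of the range of the group. Pair-fed WT mouse 2 was lowest for *Pecam1* at 435, with a gap of 0.851 of the range.

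None of the 10 markers had an effect of EtOH that differed between genotypes after adjustment, but 14 genes of the other lists did (interaction over 18 mice, limma with Benjamini-Hochberg adjustment). In each the effect of EtOH was larger, or more positive, in *Apoe* KO than in WT mice. Of the genes of activated endothelium these were *Ly6a* (1.93, adjusted p = 0.0033) and *Vcam1* (1.15, 0.0165). Of the partners of endoglin it was *Tgfb1* (1.05, 0.0156), and of the hyaluronan and stabilin cargo genes *Cd44* (1.58, 0.0202) and *Sparc* (1.19, 0.0108). Of the Kupffer cell markers they were *Clec4f* (1.67, 0.00478), *Cd5l* (1.26, 0.0462) and *Clec1b* (1.07, 0.0191). Of the macrophage markers they were *Cd14* (1.72, 0.0156), *Lyz2* (1.47, 0.0116), *Csf1r* (1.39, 0.0116) and *Cd68* (1.38, 0.0117), and of the stellate cell markers *Col1a1* (2.08, 0.0113) and *Col3a1* (1.70, 0.0113). Without pair-fed WT mouse 4, *Cd44* (adjusted p = 0.0634), *Clec1b* (0.0505), *Cd14* (0.0505) and *Cd5l* (0.135) were not called. *Cd44* was also not called without EtOH-fed *Apoe* KO mouse 4 (0.0529). *Cd5l* was not called in 15 of 23 alternatives, among them each of those without a single EtOH-fed *Apoe* KO mouse other than mouse 2.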

How the results depend on the processing

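Leaving out each mouse in turn gave 4 to 6 called genes for EtOH in WT, 8 to 9 for EtOH in *Apoe* KO, 1 to 3 for genotype in pair-fed mice, and 0 to 0 for genotype in EtOH-fed mice and for the interaction. The median difference of the 10 genes then ran from 0.456 to 0.533, from 0.892 to 1.132, from −0.425 to −0.28, from 0.063 to 0.27 and from 0.344 to 0.6. Relative to the pan-endothelial genes, the counts were 1 to 3, 3 to 3, 1 to 2, 0 to 0 and 0 to 0. With sample quality weights, these relative counts were 4 for EtOH in WT, 2 for genotype in pair-fed mice (*Lyve1* added) and 1 in EtOH-fed mice (*Vwf*, 0.775).

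The labels tie mice of the same number by nothing but the number. Deviations of same-numbered mice correlated at −0.217 to 0.159 for EtOH and for genotype in pair-fed mice, where 2, 3 and 2 of 8 samples correlated best with their own number. For genotype in EtOH-fed mice the correlations were 0.188, −0.0242, 0.23 and 0.144, and 6 of 8 samples correlated best with their own number, a hint from the data and not from the design. With the replicate number as a block, 5, 9, 3, 2 and 0 genes were called in the order above, and 2, 3, 1, 2 and 0 on the relative measure. Of all 15052 genes, the block called 1355, 2772, 392, 1083 and 575 on the log2(value + 1) scale. Without the block these were 1912, 3488, 261, 706 and 428. *Clec4g* for EtOH in WT was not called (adjusted p = 0.121), and *Stab1* for genotype in pair-fed mice was (−0.653, adjusted p = 0.0259). In EtOH-fed mice the 2 were *Lyve1* (0.47, adjusted p = 0.0421) and *Vwf* (0.68, adjusted p = 0.0297), and on the relative measure also *Lyve1* and *Vwf*.

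Differences of genes that were not called changed sign as follows, and the cause was not tested. *Stab1* for EtOH in WT was −0.004 with quality weights, −0.024 with the block, and −0.024 (without EtOH-fed WT mouse 5) to 0.215 on leaving out a mouse. *Lyve1* for genotype in pair-fed mice was 0.065 with weights and −0.177 to 0.086 on leaving out a mouse, above 0 without WT mouse 1, WT mouse 4 or *Apoe* KO mouse 3. In EtOH-fed mice *Stab1* was 0.011 with weights and −0.221 to 0.046 on leaving out a mouse, above 0 without WT mouse 5 or *Apoe* KO mouse 2, and *Clec4g* ran from −0.319 to 0.016, above 0 without the latter. The interaction of *Stab2* ran from −0.207 to 0.012, also above 0 without that mouse. The relative interaction of *Lyve1* (−0.02) was 0.004 with a pseudocount of 10, 0.055 with a mean of at least 100, and −0.134 to 0.087 on leaving out a mouse.

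Of 108 values of named genes of the other lists, 73 kept an adjusted p under 0.05 with each mouse left out, 85 under the other alternatives, and 0 changed sign. How depth limits each gene was not compared.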
